A study of Homo sapiens with 12 samples.

Results

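Messenger RNA of 10 genes that detect nucleic acids or pass the signal on to interferon genes was examined in A549 cells, a human lung adenocarcinoma line, with and without TUSC3. The genes were the RIG-I-like receptors RIGI, IFIH1 and DHX58, the adaptor MAVS, the endosomal receptor TLR3 and the DNA sensor CGAS. The others were STING1, the adaptor of CGAS, and the transcription factors IRF1, IRF3 and IRF7. These 10 of 22411 gene symbols tested were each measured by 1 feature of the array and were chosen by name from this pathway. RIGI was picked for its higher level in TUSC3 KO cells, so its differences between the genotypes are given as a description with no test, and 9 members are counted there. All 12 samples were A549 cells grown in RPMI 1640 with fetal bovine serum. The 4 groups of 3 arrays were control cells, described as wild type, and TUSC3 KO cells, each exposed for 16 h to DMSO, the solvent, or to Tunicamycin (TM) at 3 ug/ml, which blocks N-linked glycosylation and causes ER stress. The KO line came from CRISPR-treated cells plated singly and is 1 clone, so an effect of TUSC3 loss and a property of the clone cannot be told apart. Replicate arrays are not stated to come from separate cultures, and p-values then measure only the spread between arrays, which may be technical.

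Cells detect viral or misplaced nucleic acid with a small set of receptors. RIG-I (the product of RIGI) and MDA5 (IFIH1) bind double-stranded RNA in the cytosol and signal through MAVS on mitochondria, LGP2 (DHX58) modulates both, TLR3 binds double-stranded RNA in endosomes, and cGAS makes the messenger cGAMP from DNA, which STING1 reads at the ER. These routes activate IRF3 and IRF7, which switch on interferon genes, and secreted interferon raises the transcription of many genes, among them RIGI, IFIH1, DHX58, IRF1 and IRF7 themselves. In epithelial cells the type III interferons IFNL1, IFNL2 and IFNL3 are a main product.

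Values are log2 intensities after RMA, and levels of different genes cannot be compared with each other because each has its own probes. TUSC3 itself ranged from 5.50 to 5.78 in the 6 TUSC3 KO arrays and from 6.90 to 7.16 in the 6 control arrays, and RNA carrying the edit can still bind the probes. DDIT3, a transcription factor of the unfolded protein response, rose under TM in control cells (log2 difference 2.61) and in TUSC3 KO cells (2.54; limma adjusted p = 1.4e-10 and 2.5e-10). Arrays of a group correlated at 0.9958 to 0.9985 over all genes, which are not independent replicates. All 6 epithelial markers lay above 4.77, the median of all features on the array, in every group, and where a gene has a group below this value the size of its difference is uncertain. Of the blood cell markers tested, 4 of 5 lay below it, and their summed level was 6.65 to 6.78 in TUSC3 KO and 6.52 to 6.62 in control arrays. The part of that summed level in the results was not tested. Of the fibroblast markers tested, 2 of 5 lay below 4.77 in each group, and of the endothelial markers 3 of 6. A level above 4.77 is therefore not taken to show that a gene is expressed.

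Short stretches of the promoters of 4 of these genes show the letters that interferon-driven factors are known to bind. RefSeq windows of GRCh38.p14, from 250 bases before to 50 bases after the start of transcription, were given for 5 of the 10 genes (RIGI, IFIH1, MAVS, TLR3 and IRF1). Both strands were searched for the core of the interferon-stimulated response element (GAAANNGAAA), bound by IRFs and their complexes, for the gamma-activated site (TTCNNNGAA), a motif of cytokine-responsive genes that is identical in pattern on both strands, and for a form with 1 base between the repeats (GAAANGAAA). The last search was added after the windows had been read, and RIGI is among the 4 by it alone. The share of all windows with this form is therefore no measure of chance for RIGI. Matches are in capitals, and the other letters are in lower case.
RIGI, chr9:32526366-32526424, strand -: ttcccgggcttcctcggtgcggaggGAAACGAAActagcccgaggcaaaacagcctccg
IFIH1, chr2:162318671-162318868, strand -: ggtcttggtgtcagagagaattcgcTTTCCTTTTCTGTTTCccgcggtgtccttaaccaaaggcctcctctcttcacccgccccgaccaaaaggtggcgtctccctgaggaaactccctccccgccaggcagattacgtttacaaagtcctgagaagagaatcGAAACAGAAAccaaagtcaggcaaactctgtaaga
TLR3, chr4:186068953-186069185, strand +: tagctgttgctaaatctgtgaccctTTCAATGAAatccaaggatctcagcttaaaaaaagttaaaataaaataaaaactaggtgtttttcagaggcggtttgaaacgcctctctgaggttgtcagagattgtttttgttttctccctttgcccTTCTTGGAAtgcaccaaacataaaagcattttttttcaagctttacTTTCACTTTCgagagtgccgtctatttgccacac
IRF1, chr5:132490864-132490922, strand -: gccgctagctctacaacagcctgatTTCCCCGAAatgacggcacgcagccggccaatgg
The RIGI window held the form with 1 base between the repeats, with its first base 203 bases before the start, and no match to the other patterns. IFIH1 held 3 matches to the response element core, one with its first base 21 bases before the start and a pair on the opposite strand that overlap each other (first bases 159 and 153 before the start). TLR3 held 1 response element core on the opposite strand, across the start, and 2 gamma-activated sites. IRF1 held 1 gamma-activated site, 124 bases before the start. MAVS held no match to any of the 3 patterns. Of all 35116 windows in the table, 3.57% held the response element core, 7.66% the gamma-activated site and 3.12% the form with 1 base between. A match describes letters and is no evidence of binding in these cells.

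RIGI encodes the sensor of short RNA with a 5' triphosphate. Its level under DMSO was 6.28, 6.12 and 6.29 in control and 7.41, 7.43 and 7.53 in TUSC3 KO cells. Under TM it was 6.39, 6.30 and 6.42 in control and 7.62, 7.44 and 7.76 in TUSC3 KO cells. Every TUSC3 KO array lay above every control array. The difference between genotypes was 1.22 (SE 0.08) under DMSO and 1.24 (SE 0.08) under TM, or 2.34-fold and 2.36-fold. The interaction, the genotype difference under TM minus that under DMSO, was 0.01 (SE 0.11). In bulk RNA, more cells with a gene on and more RNA per cell cannot be told apart. TM left RIGI 0.14 (SE 0.08, limma adjusted p = 0.25) above DMSO in control and 0.15 (SE 0.08, adjusted p = 0.20) above it in TUSC3 KO cells, which did not pass the test, although without replicate 2 of TUSC3 KO under TM the second difference was 0.23 and passed (adjusted p = 0.024).

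**Figure D1:**
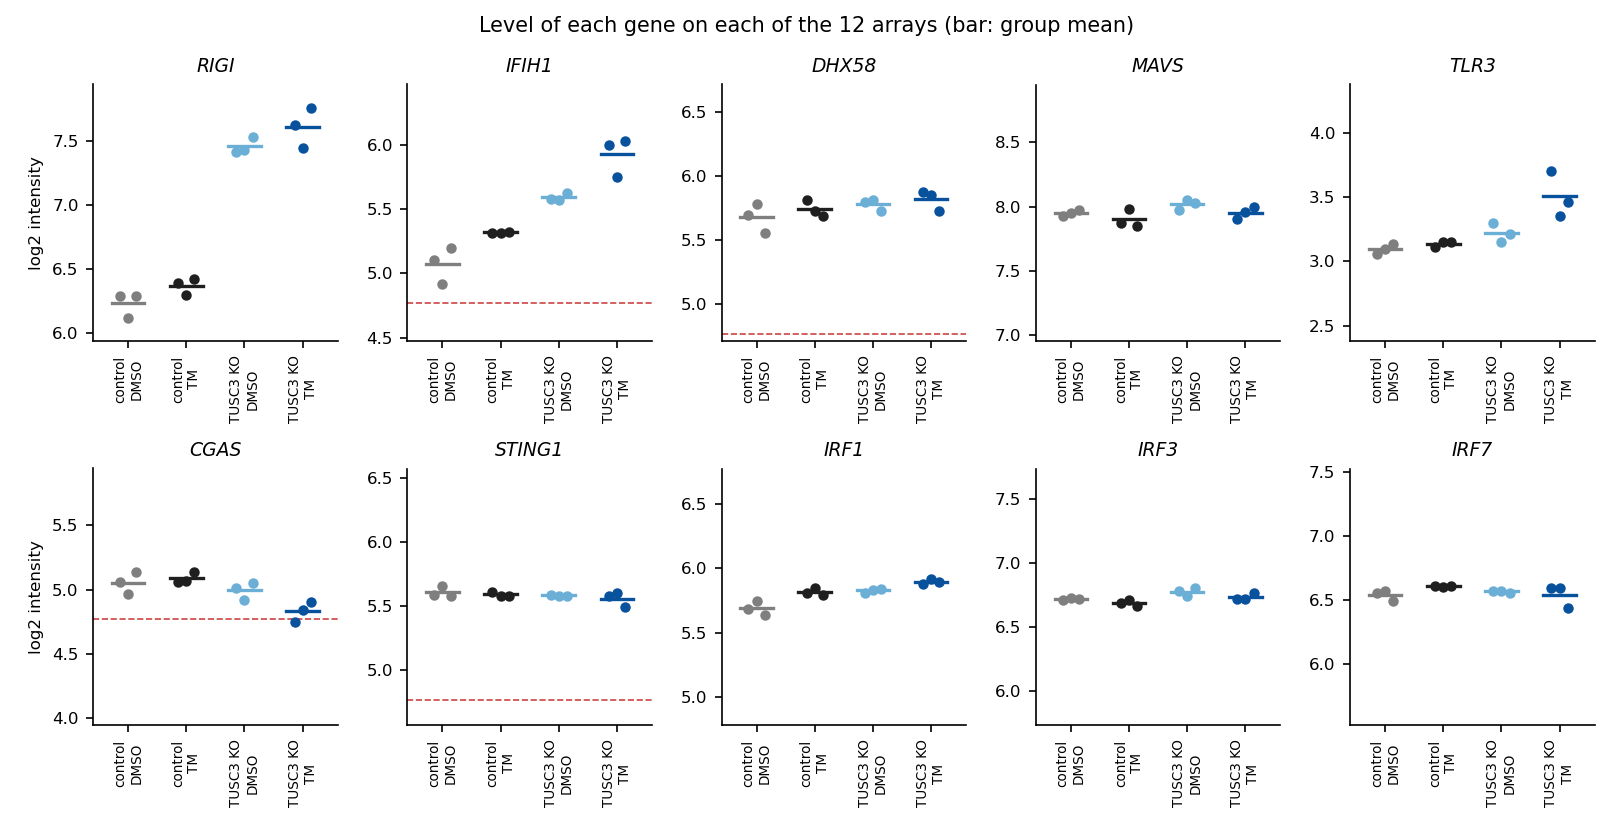
Level of each of the 10 genes (log2 intensity, y axis spanning 2 log2 units in each panel) on the 12 arrays by group. Points are arrays, bars are group means of 3, and the dashed line is the median of all features (4.77). RIGI and IFIH1 separate the genotypes, and TLR3 lies below the dashed line in every group.

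IFIH1, the sensor of long double-stranded RNA, rose with the knockout and rose further with TM. Its level under DMSO was 5.10, 4.92 and 5.20 in control and 5.58, 5.58 and 5.63 in TUSC3 KO cells. Under TM it was 5.32, 5.32 and 5.32 in control and 6.01, 5.75 and 6.03 in TUSC3 KO cells. None of the 4 groups overlapped another, in the order control DMSO, control TM, TUSC3 KO DMSO and TUSC3 KO TM. The genotype difference was 0.52 (SE 0.08, limma adjusted p = 0.00081) under DMSO and 0.61 (SE 0.08, adjusted p = 0.0002) under TM, or 1.44-fold and 1.53-fold. TM raised IFIH1 by 0.33 (SE 0.08, adjusted p = 0.0067) in TUSC3 KO cells and by 0.25 (SE 0.08, adjusted p = 0.037) in control cells. The call in control cells was lost without either of control DMSO replicates 1 and 2, TUSC3 KO DMSO replicates 1 and 2 or any control TM array (adjusted p = 0.051 to 0.13, differences of 0.17 to 0.26). The interaction was 0.09 (SE 0.11, adjusted p = 0.74). The control values lie little above 4.77.

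DHX58, the third receptor of the family and the one without signalling domains of its own, spanned 0.14 between its lowest and highest group mean. It ranged from 5.55 to 5.78 in control and from 5.73 to 5.81 in TUSC3 KO cells under DMSO, and these groups overlapped. The genotype difference was 0.10 (SE 0.06, limma adjusted p = 0.41) under DMSO and 0.07 (SE 0.06, adjusted p = 0.49) under TM. MAVS, the adaptor of RIG-I and MDA5, was 7.95 ± 0.02 (SD, n = 3) in control and 8.02 ± 0.04 (SD, n = 3) in TUSC3 KO cells under DMSO. Its genotype difference was 0.07 (SE 0.04, adjusted p = 0.38) under DMSO and 0.05 (SE 0.04, adjusted p = 0.43) under TM. The 95% interval of the DMSO difference ran up to 0.24 for DHX58 and 0.15 for MAVS.

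TLR3 was dim in every group, and its differences have no fixed size. Under DMSO its level was 3.05, 3.10 and 3.14 in control and 3.30, 3.15 and 3.21 in TUSC3 KO cells. Under TM it was 3.11, 3.15 and 3.15 in control and 3.71, 3.36 and 3.47 in TUSC3 KO cells. The TUSC3 KO arrays under TM lay above all others. The genotype difference was 0.12 (SE 0.07, limma adjusted p = 0.42) under DMSO and 0.37 (SE 0.07, adjusted p = 0.0045) under TM. TM raised it by 0.29 (SE 0.07, adjusted p = 0.012) in TUSC3 KO cells, a call lost without TUSC3 KO DMSO replicate 2 (adjusted p = 0.053), and the difference was 0.04 (adjusted p = 0.76) in control cells. The interaction itself was 0.25 (SE 0.11, adjusted p = 0.21) and did not pass the test.

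CGAS, the cytosolic DNA sensor, was the only member called lower in TUSC3 KO cells. Under TM it was 5.06, 5.06 and 5.14 in control and 4.75, 4.84 and 4.90 in TUSC3 KO cells, with no overlap. The difference was -0.26 (SE 0.06, limma adjusted p = 0.0081), a call lost by the methods' t-test (adjusted p = 0.076). The TUSC3 KO value of 4.75 lies below 4.77, the median of all features, and the others lie little above it. Under DMSO the groups overlapped, at 4.96 to 5.14 in control and 4.92 to 5.05 in TUSC3 KO cells, and the difference was -0.06 (SE 0.06, adjusted p = 0.69). TM against DMSO in TUSC3 KO cells gave -0.17 (SE 0.06, adjusted p = 0.051), just outside the threshold and inside it under 7 alternatives (without control DMSO replicate 2 or 3, TUSC3 KO DMSO replicate 2 or TUSC3 KO TM replicate 3 among them), and the interaction was -0.20 (SE 0.08, adjusted p = 0.19). STING1, the ER protein that binds cGAMP, had a mean of 5.56 to 5.61 in the 4 groups, and no comparison called it.

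IRF1, a factor that interferon gamma is known to induce, differed by small amounts. It was 5.69, 5.75 and 5.64 in control and 5.81, 5.84 and 5.84 in TUSC3 KO cells under DMSO, with no overlap. The genotype difference was 0.14 (SE 0.03, limma adjusted p = 0.024) under DMSO and 0.08 (SE 0.03, adjusted p = 0.15) under TM, and TM raised IRF1 by 0.12 (SE 0.03, adjusted p = 0.021) in control cells. The first call was lost without control DMSO replicate 1 or 3 or TUSC3 KO DMSO replicate 2 or 3 (adjusted p = 0.075 to 0.09), and the last without control DMSO replicate 1 or 3 or control TM replicate 2 (adjusted p = 0.062 to 0.086). With quantile normalization again the genotype difference of IRF1 under TM was called (limma adjusted p = 0.038). IRF3, which is present before infection and is activated by phosphorylation, had group means of 6.69 to 6.78. IRF7, the factor that amplifies interferon alpha transcription, had group means of 6.54 to 6.61, and neither was called in any comparison.

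**Figure D2:**
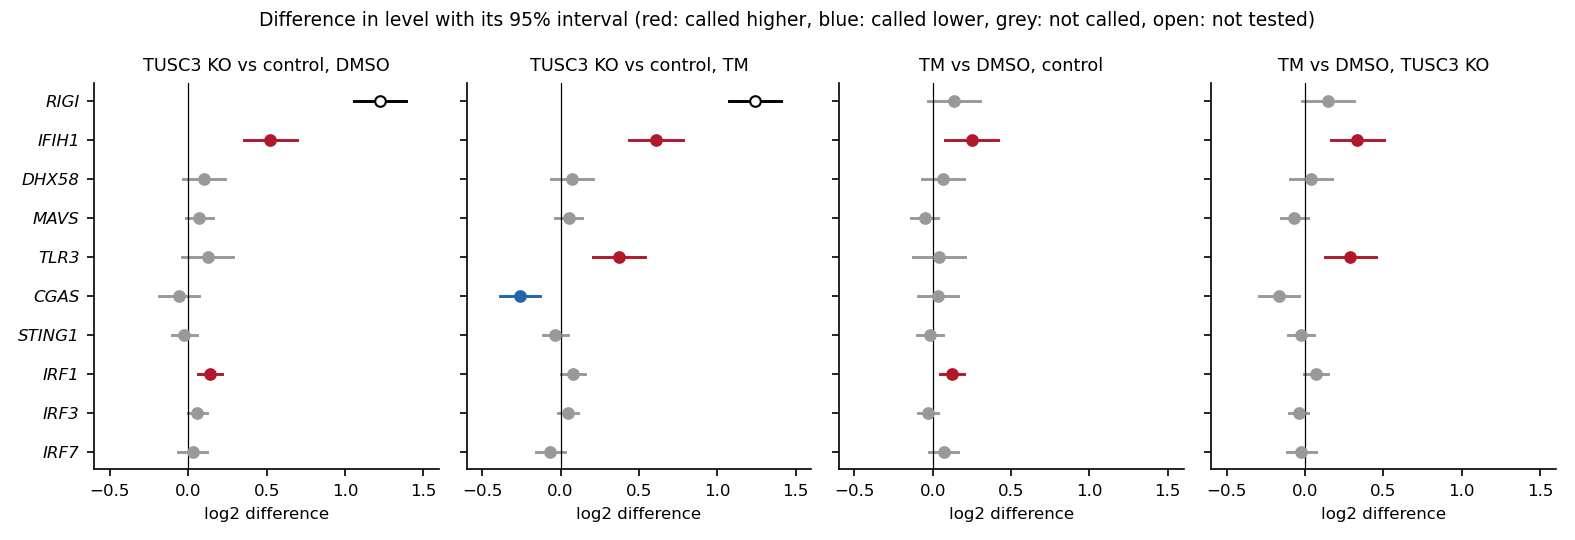
Log2 difference of each of the 10 genes in 4 comparisons, with its 95% interval (x axis, log2 units). Red is called higher, blue called lower, grey not called, and the open RIGI points were not tested. The TUSC3 KO panels put RIGI at 1.22 and 1.24 and IFIH1 at 0.52 and 0.61, the farthest from 0 in them.

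Counted together, 2 of the 9 members other than RIGI were called higher in TUSC3 KO cells under DMSO (IFIH1 and IRF1) and none lower. Of all 22411 genes 12.7% were called there, 6.58% higher and 6.11% lower. Under TM 2 of 9 were higher (IFIH1 and TLR3) and 1 lower (CGAS), where 17.0% of all genes were called, 8.99% higher and 7.97% lower. TM raised 2 of all 10 members in control cells (IFIH1 and IRF1), where 24.8% of all genes were called, 11.2% higher and 13.6% lower. It raised 2 of 10 in TUSC3 KO cells (IFIH1 and TLR3), where 27.4% were called, 12.5% higher and 14.9% lower. The interaction called 0 of 9 (limma; 2 had an unadjusted p under 0.05) and 7.91% of all genes. By the methods' t-test after Benjamini-Hochberg adjustment, 1 of these calls held, that of IFIH1 between genotypes under TM. The members are too few for these counts to stand apart from the shares over all genes. The median genotype difference of the 9 was 0.07 under DMSO and 0.05 under TM, against 0.01 and -0.02 over all genes. Arrays did not overlap for 5 of 9 members between genotypes under DMSO and 6 of 9 under TM (26.7% and 28.7% of all genes), and for 3 of these 9 between TM and DMSO in control cells, against 4 in the KO line (38.6% and 36.2% of all genes). DHX58, MAVS, STING1, IRF3 and IRF7 were called nowhere, with differences from -0.09 to 0.10 in the 5 comparisons and adjusted p-values from 0.27 up.

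RIGI lies on the short arm of chromosome 9, and its neighbours were measured too. The 20 nearest tested genes in RefSeq order were taken, 10 on each side. The DMSO comparison called 6 of them higher in TUSC3 KO cells and the TM comparison 10, and none lower. These comparisons called 6.58% and 8.99% of all genes higher. The median difference of the 20 neighbours was 0.13 under DMSO and 0.18 under TM, below the values of RIGI. The adjacent ACO1, an iron-responsive aconitase, gave 0.42 (limma adjusted p = 0.00015) and 0.32 (adjusted p = 0.00085), and TOPORS, a ubiquitin ligase on the other side, 0.19 (adjusted p = 0.051) and 0.29 (adjusted p = 0.0041). LINGO2, a neuronal membrane protein, gave 0.61 and 1.35 (adjusted p = 0.00026 and 3.5e-07), of uncertain size at a mean level of 4.39, and DNAJA1, an HSP40 chaperone, 0.34 and 0.30 (adjusted p = 0.0003 and 0.00057). The part of the neighbourhood in RIGI's difference was not tested. Around IFIH1 on chromosome 2 the counts ran the other way, with 0 of 20 neighbours higher in either comparison. There were 6 lower under DMSO and 2 under TM, where 6.11% and 7.97% of all genes were called lower. Around the other members the DMSO counts ran from 4 lower and 0 higher for CGAS to 3 higher and 0 lower for TLR3. Under TM at most 3 were higher (CGAS and STING1) and at most 4 lower (STING1).

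**Figure D3:**
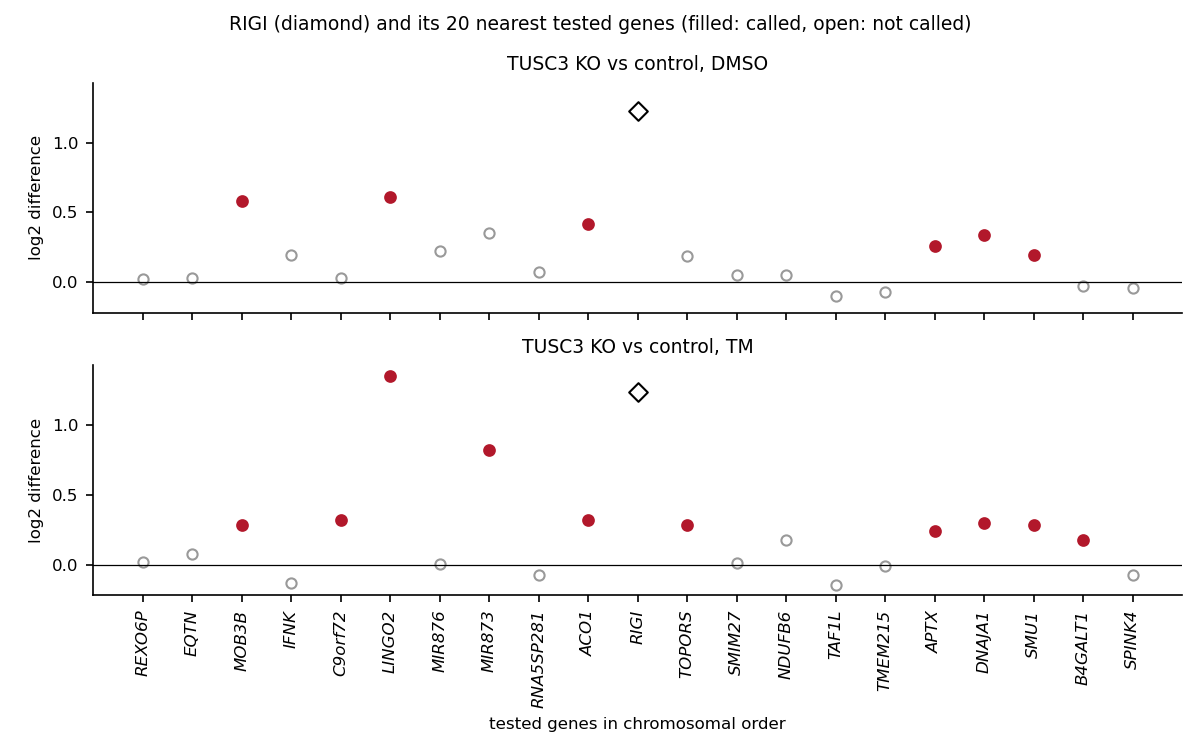
Log2 difference between TUSC3 KO and control cells of RIGI (diamond) and its 20 nearest tested genes in chromosomal order, under DMSO (top) and TM (bottom). Filled points were called. RIGI stands at 1.22 and 1.24, and 6 and 10 neighbours were called, all of them higher.

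Across the 12 arrays, the genes whose level was most like that of RIGI were sought among 2431 genes whose group means span at least 0.5. PTPRB, an endothelial phosphatase, correlated best (Pearson r = 0.99, over 12 arrays that share 4 groups and the same genotype step). TBC1D2, on chromosome 9 like RIGI, followed (0.99), then the interferon-induced GTPase GBP3 (0.98), LONRF3 (0.98) and FA2H (0.98). The lowest values were those of APBB1IP (-0.99), ANTXR1 (-0.99) and the long non-coding RNA FAM224A on chromosome Y (-0.99). PTPRB in control cells (means 4.30 and 4.27) and APBB1IP in TUSC3 KO cells (4.75 and 4.72) lie below 4.77. IFIH1 had rank 67 in this order with r = 0.92. Among the other members r ran from -0.67 for CGAS to 0.74 for TLR3.

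Genes on either side of the sensors were counted from lists of the pathway. Of 15 tested signalling genes below the sensors, 2 were higher in TUSC3 KO cells under DMSO and none lower. Among all genes 12.7% were called under DMSO and 17.0% under TM. The 2 were MYD88, the adaptor of most Toll-like receptors (0.34, limma adjusted p = 0.0023), and FADD, a death-domain adaptor (0.22, adjusted p = 0.026). Under TM both were higher again (0.36 and 0.21, adjusted p = 0.0012 and 0.023), and TRAF3, the ligase that links MAVS to TBK1, and TRADD fell (-0.17 and -0.11, adjusted p = 0.0035 and 0.041). The FADD calls were lost without any one of 4 arrays in each comparison (control replicates 1 and 2 and TUSC3 KO replicates 2 and 3 under DMSO, control replicates 2 and 3 and TUSC3 KO replicates 1 and 2 under TM), and that of TRADD without any one of 8 (all but control DMSO 1 to 3 and control TM 3). The kinase TBK1, which phosphorylates IRF3, differed by -0.02 and -0.01 (adjusted p = 0.93 and 0.92). The list median was 0.04 under DMSO and 0.02 under TM. TM raised 3 of the 15 in control cells (AZI2, TRAF3 and TRADD) and 1 in TUSC3 KO cells (AZI2), and lowered none. The shares of all genes called there were 24.8% and 27.4%. AZI2, a TBK1-binding adaptor, rose by 0.20 in control (adjusted p = 0.023, a call lost without control DMSO replicate 1 or 2 or control TM replicate 2) and by 0.39 in the KO line (adjusted p = 0.00024), and its interaction was not called (0.19, adjusted p = 0.20).

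Among 11 tested ligases and inhibitors of the RIG-I and MAVS branch, 2 were higher in TUSC3 KO cells under DMSO. Under TM 4 were higher and 1 lower, and the list medians were -0.0001 and 0.03. Of all genes 12.7% were called under DMSO and 17.0% under TM. The 5 called under TM became 3 without control TM replicate 1 or 3 or TUSC3 KO TM replicate 3, and 2 without control TM replicate 2. TNFAIP3 (A20), an inhibitor induced by NF-kappaB, rose by 0.76 (limma adjusted p = 4.1e-06) under DMSO and 0.41 (adjusted p = 0.00034) under TM. Its level was 6.43 to 6.56 in control and 7.20 to 7.28 in TUSC3 KO cells under DMSO, and 6.38 to 6.46 and 6.73 to 6.96 under TM. CYLD, a deubiquitinase that restrains RIG-I, rose by 0.20 (adjusted p = 0.016) and 0.28 (adjusted p = 0.0013), the first call being lost without control DMSO replicate 2 or 3 or TUSC3 KO DMSO replicate 1 or 2 (adjusted p = 0.051 at the lowest). TM raised ITCH, a ligase that degrades MAVS, by 0.31 in control cells and by 0.36 in the KO line, and MEX3C, a ligase of RIG-I, by 0.33 and 0.37 (adjusted p = 0.00017 at the highest).

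Among other nucleic acid sensors and effectors several rose with the knockout. Of 15 tested, 7 were called higher in TUSC3 KO cells under DMSO and 5 in the presence of TM. No gene was called lower, and the list medians were 0.09 and -0.01. With 1 array left out, 5 to 8 of the list were called under DMSO and 5 to 6 under TM. The shares of all genes called higher were 6.58% under DMSO and 8.99% under TM. DDX60, a helicase reported as a RIG-I cofactor, was 5.92, 5.71 and 5.95 in control and 6.68, 6.72 and 6.72 in TUSC3 KO cells under DMSO. The difference was 0.85 (limma adjusted p = 7.3e-06), and 1.21 (adjusted p = 2.7e-07) under TM. IFI16, a sensor of DNA, was 4.40, 4.40 and 4.56 in control and 4.97, 5.02 and 5.10 in TUSC3 KO cells under DMSO. Under TM it was 4.70, 4.72 and 4.69 against 5.79, 5.78 and 6.09. The differences were 0.57 (adjusted p = 0.00041) and 1.19 (adjusted p = 9.7e-07), of uncertain size because its control values lie below 4.77.

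The OAS genes, which encode the enzymes that make the activator of RNase L, split by treatment. OAS2 rose by 0.49 under DMSO and 0.82 under TM (limma adjusted p = 0.00032 and 4e-06), and OAS3 by 0.31 under DMSO (adjusted p = 7.4e-05) with 0.08 under TM (adjusted p = 0.14). OAS1 differed by 0.08 under DMSO (adjusted p = 0.46) and by 0.77 under TM (adjusted p = 8e-07). Its level fell under TM in both lines, from 6.73 to 6.80 down to 5.47 to 5.68 in control and from 6.79 to 6.87 down to 6.37 in TUSC3 KO cells, where all 3 arrays list the same value. OAS2 has the same value, 5.27, on the 3 control arrays under DMSO. Such ties on 3 arrays occurred for 0.732% of genes in TUSC3 KO cells under TM and up to 3.55% in another group. They make the spread of those genes look smaller than it is. ZC3HAV1 (ZAP), which binds viral RNA, rose by 0.24 and 0.48 (adjusted p = 0.0019 and 9.8e-06) and fell with TM in both lines. The interaction was called for OAS1 (0.70, adjusted p = 0.00015), and those of the other genes are given with the closing observations. EIF2AK2 (PKR), the kinase activated by double-stranded RNA, differed by -0.16 and -0.12 and was not called (adjusted p = 0.07 and 0.13).

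**Figure D4:**
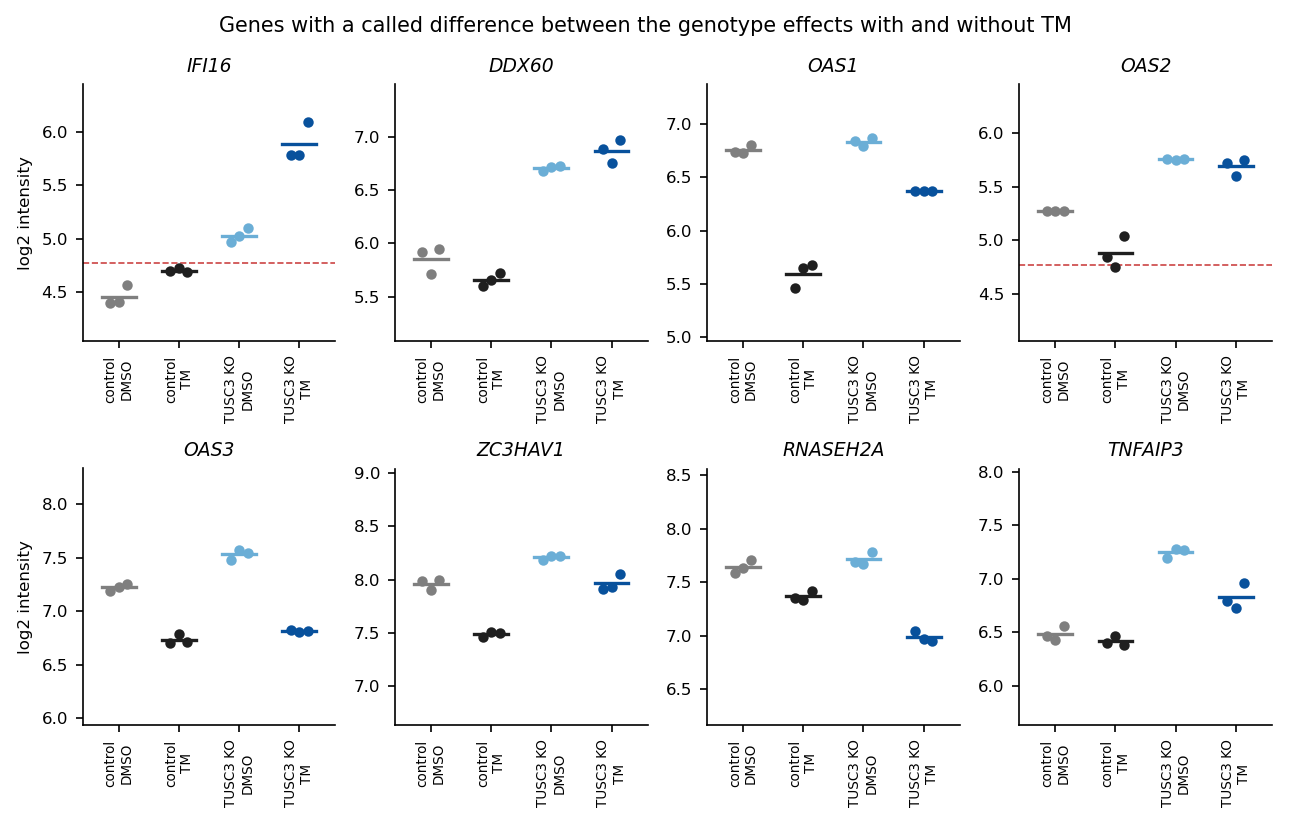
Level (log2 intensity, y axis spanning 2.4 log2 units in each panel) of 8 sensors, effectors and regulators on the 12 arrays by group, with group means as bars and the median of all features (4.77) as a dashed line. The gap between the genotypes is wider under TM for IFI16, DDX60, OAS1, OAS2 and ZC3HAV1, narrower for OAS3 and TNFAIP3, and of the opposite sign for RNASEH2A.

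Of 11 tested genes that remove nucleic acids or handle cGAMP, 1 was higher and 1 lower in each genotype comparison (4 called under TM without TUSC3 KO TM replicate 2). The shares called over all genes were 12.7% under DMSO and 17.0% under TM. LRRC8A, a subunit of the volume-regulated channel that carries cGAMP, rose by 0.35 and 0.38 (limma adjusted p = 6.5e-05 and 2.8e-05). RNASEH2A, the catalytic subunit of RNase H2, fell by 0.38 under TM (adjusted p = 7.1e-05). DNASE2, the lysosomal DNase, fell by 0.14 under DMSO (adjusted p = 0.03), a call lost without control DMSO replicate 2 or 3 or any TUSC3 KO DMSO array. With TM, 5 of 11 fell and 2 rose in each line, where 24.8% of all genes were called in control and 27.4% in TUSC3 KO cells. ENPP1, which degrades cGAMP outside the cell, fell by 1.02 in control and 0.76 in TUSC3 KO cells (adjusted p = 6.9e-07 and 7.4e-06), SAMHD1, a dNTPase, fell by 0.51 and 0.76 (adjusted p = 8.4e-05 and 2.9e-06), and SURF4, an ER cargo receptor that retrieves STING1, rose by 0.52 and 0.50 (adjusted p = 1e-07 and 1.4e-07). None of the other 4 tested IRF genes (IRF2, IRF4, IRF5 and IRF8) was called by limma in the 5 comparisons, with 1 of 4 at an unadjusted p under 0.05 between genotypes under TM and 2 of 4 for TM in control cells, where 1 passed after quantile normalization again or without control DMSO replicate 2.

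The interferons themselves fell into a dim and a brighter set. Of 21 tested, 17 had a mean below 4.77, among them IFNB1, IFNG and all interferon alpha genes. IFNB1 differed by 0.35 and 0.43 between genotypes and was not called (limma adjusted p = 0.37 and 0.17). The 4 brighter genes were called higher in TUSC3 KO cells under both treatments, where 6.58% (DMSO) and 8.99% (TM) of all genes were called higher. IFNL1 was 6.48, 6.51 and 6.46 in control and 7.19, 7.28 and 7.09 in TUSC3 KO cells under DMSO, a difference of 0.71 (adjusted p = 0.00012), and 0.80 (adjusted p = 3.5e-05) under TM. IFNL2 and IFNL3 are near-identical copies that the probes may not separate, and rose by 0.58 and 0.42 under DMSO (adjusted p = 4.1e-05 and 0.0012) and by 0.90 and 0.53 under TM (adjusted p = 8e-07 and 0.00016). IFNE, an interferon of epithelia that also lies on chromosome 9, was 5.62, 5.43 and 5.57 in control and 6.26, 6.53 and 6.54 in TUSC3 KO cells under DMSO, a difference of 0.90 (adjusted p = 0.0012), and 1.03 (adjusted p = 0.00034) under TM. The dim IFNA1 was also called higher under TM (0.41, adjusted p = 0.00032). Its near copy IFNA13 differed by 0.04 there and was not called (adjusted p = 0.83). The list median was 0.08 under DMSO and 0.04 under TM.

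Among 13 tested interferon receptor and JAK-STAT genes, the DMSO comparison called 3 higher in TUSC3 KO cells and 1 lower. The TM comparison called 6 higher and none lower. These comparisons called 12.7% and 17.0% of all genes. The list medians were 0.003 and 0.15. IFNGR1, the ligand-binding chain of the interferon gamma receptor, rose by 0.73 and 0.64 (limma adjusted p = 2.6e-05 and 5e-05). Its level under TM was 6.34 to 6.43 in control and 6.89 to 7.13 in TUSC3 KO cells. STAT3, a transcription factor of cytokine receptors, rose by 0.43 and 0.21 (adjusted p = 1.9e-06 and 0.00039), and USP18, an inhibitor of the type I receptor, by 0.31 and 0.27 (adjusted p = 0.00089 and 0.0016). JAK2, a kinase of the gamma receptor that also lies on chromosome 9, differed by 0.11 under DMSO (adjusted p = 0.47) and rose by 0.50 under TM (adjusted p = 0.00059).

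Of 38 tested interferon-stimulated genes, 21 were higher and none lower in TUSC3 KO cells under DMSO, and 21 were higher and 2 lower under TM, where the list medians were 0.29 and 0.35 against 0.01 and -0.02 over all genes. Among all genes, the DMSO comparison called 6.58% as raised and 6.11% as lowered. For the TM comparison these shares were 8.99% and 7.97%. A mean below 4.77 was found for 11 of the 38, and the size of their differences is uncertain. The counts of called genes in the list stayed between 19 and 23 with any array left out. OASL, an OAS-like protein that enhances RIG-I signalling, was 7.31 to 7.38 in control and 8.18 to 8.22 in TUSC3 KO cells under DMSO and rose by 0.85 (limma adjusted p = 2.6e-08) there and by 1.09 (adjusted p = 2.9e-09) under TM. IFIT2, which binds viral RNA, rose by 0.68 and 1.05 (adjusted p = 0.00014 and 3.2e-06), and SAMD9, an antiviral restriction factor, by 0.72 and 1.20 (adjusted p = 0.00078 and 1.1e-05), of uncertain size since its control values lie below 4.77. The membrane protein IFITM2, which blocks viral entry, rose by 1.01 and 1.36 (adjusted p = 6.3e-08 and 3.9e-09), and its relatives IFITM3 and IFITM1 by 0.73 and 0.46 under DMSO. These copies resemble each other closely, and their probes may be shared. TM lowered all 3 of them in both lines, IFITM2 by 1.70 in control and 1.35 in TUSC3 KO cells (adjusted p = 2.6e-10 and 1.8e-09). The 2 genes lower under TM were UBE2L6, the conjugating enzyme of ISG15, and the proteasome subunit PSMB9 (-0.21 and -0.14, adjusted p = 0.039 and 0.045), named after their values were seen. ISG15 itself differed by 0.26 under DMSO and 0.05 under TM and was not called (adjusted p = 0.076 and 0.76).

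**Figure D5:**
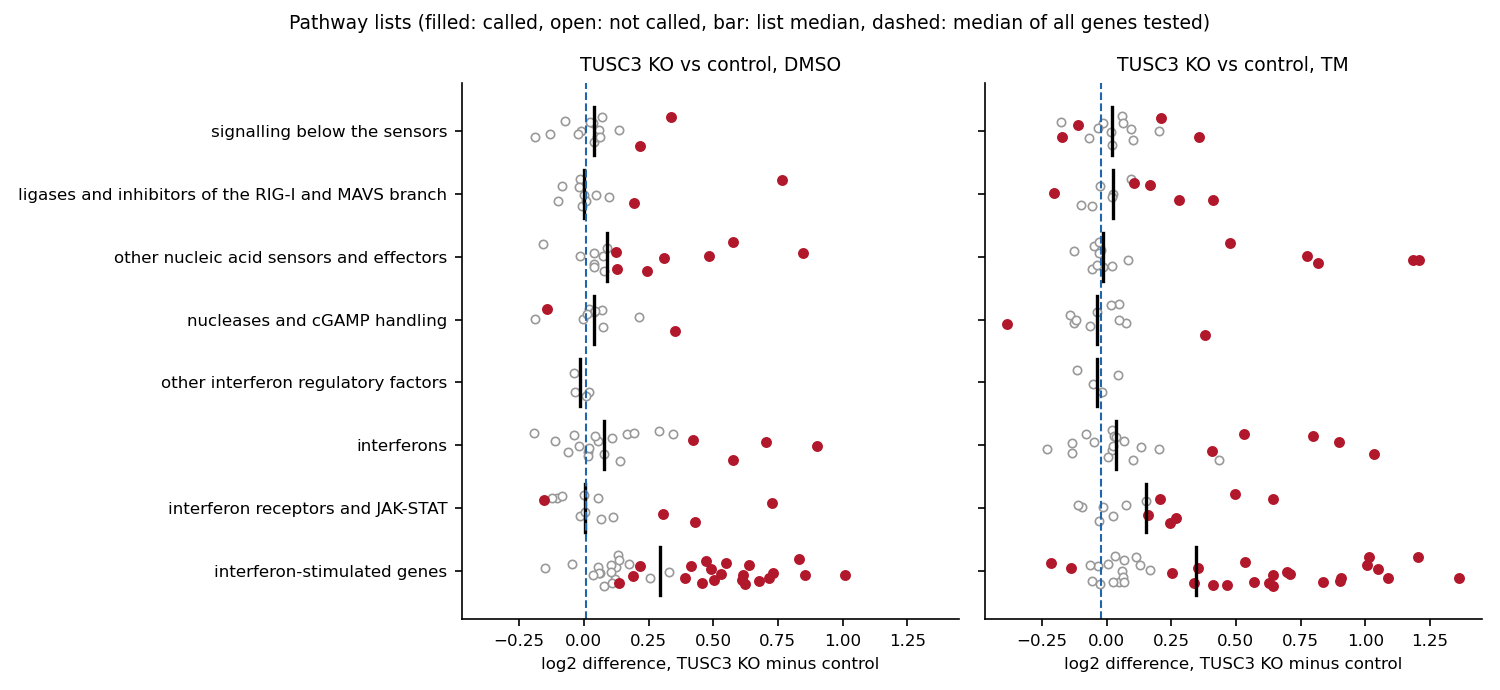
Log2 difference between TUSC3 KO and control cells (x axis) of every tested gene in 8 pathway lists, under DMSO (left) and TM (right). Filled points were called, bars are list medians and the dashed line is the median of all genes tested. The interferon-stimulated genes have medians of 0.29 and 0.35, and the other 7 lists lie between -0.04 and 0.15.

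TM did not move the interferon-stimulated list one way. It raised 5 and lowered 7 of 38 in control and raised 9 and lowered 9 in TUSC3 KO cells, with medians of 0.01 and -0.02. The shares of all genes called by TM were 24.8% in control and 27.4% in TUSC3 KO cells. Of the interferons, 0 of 21 were called in control (limma, 1 at an unadjusted p under 0.05, and 1 called with the compared groups alone). In TUSC3 KO cells 2 rose, IFNL2 by 0.35 (adjusted p = 0.00069) and IFNA1 by 0.24 (adjusted p = 0.0065). Their near copies IFNL3 (0.08, adjusted p = 0.45) and IFNA13 (0.15, adjusted p = 0.25) were not called. TM lowered IFNGR1 by 0.53 and 0.61 in the 2 lines and PIAS1, a SUMO ligase, by 0.49 and 0.24, while JAK1 rose by 0.37 and 0.50 and IL10RB, a chain of the interferon lambda receptor, by 0.14 and 0.38 (adjusted p = 0.0073 at the highest of these 8).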

How the data were processed

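RNA of A549 cells was hybridised to GeneChip Human Transcriptome Array 2.0 arrays, 12 in all. The authors' deposited values are log2 intensities from RMA, a background correction with quantile normalization and probe summary, per the labels. No source used here gives its version or annotation build. Of 70523 features, 23781 carried 1 gene symbol, 1543 several and 45199 none. After 306 symbols were brought up to date, 22411 were tested, by the brightest feature for the 528 that had several. This normalization makes levels relative within an array. The number of arrays limits the precision.

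Comparisons were fitted in R 4.3.3 by limma 3.58.1 (lmFit and eBayes with a variance trend, 1 spread per gene over 12 arrays), in the 5 comparisons of genotype under each treatment, TM in each genotype and their interaction, which share arrays. A gene was called at a Benjamini-Hochberg adjusted p under 0.05 over all symbols. The fit was tested on simulated data. An exact permutation test of 3 arrays against 3 cannot go below 0.1. Tables and figures used pandas and matplotlib.

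The members and the gene lists were chosen with earlier results of these data known. Named are all members, up to 4 called genes per list with the largest differences between genotypes or with TM, 4 neighbours of RIGI, and the 5 genes most and 3 least like RIGI. Alternatives were each array left out, the methods' t-test, a replicate block, a further quantile normalization, a fit without the variance trend, the compared groups fitted alone, dim genes left out and the mean of several features. Genes with no feature of their own were not analysed here.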

Additional observations from a re-analysis of the deposited data

Results flagged for a closer look

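For the following genes the genotype difference was not the same with and without TM, by limma's test of the interaction over all genes tested, where 7.91% of genes passed it. All values are log2 differences under TM minus those under DMSO. Of 15 sensors and effectors, 5 passed as higher and 2 as lower, namely OAS1 with 0.70 (adjusted p = 0.00015), IFI16 0.61 (adjusted p = 0.0057, of uncertain size because its control values lie below the median of all features), DDX60 0.36 (adjusted p = 0.041), OAS2 0.33 (adjusted p = 0.046), ZC3HAV1 0.23 (adjusted p = 0.034), OAS3 -0.23 (adjusted p = 0.013) and DDX41 -0.17 (adjusted p = 0.041). RNASEH2A gave -0.46 (adjusted p = 0.00099), TNFAIP3 -0.35 (adjusted p = 0.02) and TRAF3 -0.21 (adjusted p = 0.017). IFNL2 gave 0.32 (adjusted p = 0.035), while its near copy IFNL3 did not pass (0.11, adjusted p = 0.60). Of 13 interferon receptor and JAK-STAT genes, 4 passed as higher and 1 as lower, namely JAK2 with 0.38 (adjusted p = 0.047), IL10RB 0.24 (adjusted p = 0.0064), PIAS1 0.24 (adjusted p = 0.014), IFNAR2 0.18 (adjusted p = 0.049) and STAT3 -0.22 (adjusted p = 0.0067). Of 38 interferon-stimulated genes, 6 passed as higher and none as lower. IFITM2 gave 0.36 (adjusted p = 0.0055) and OASL 0.23 (adjusted p = 0.011), and the other 4 were HERC5 with 0.53 (adjusted p = 0.0016), IFI6 with 0.40 (adjusted p = 0.02), IFIT1, with control values below that median, with 0.37 (adjusted p = 0.022) and IFIT3 with 0.31 (adjusted p = 0.03). These 4, DDX41 and IFNAR2 were named after their values were seen. LINGO2, a neighbour of RIGI, gave 0.74 (adjusted p = 0.0019), also of uncertain size at a mean level of 4.39, and FA2H, a gene alike to RIGI over the arrays, 0.22 (adjusted p = 0.017).

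These calls did not all hold with fewer arrays. Leaving out 1 array ended that of DDX60 and OAS2 for 10 of the 12 arrays each, JAK2 for 9, ZC3HAV1 for 8, IFNL2 for 7, TNFAIP3 for 5 and TRAF3 for 1 (TUSC3 KO DMSO replicate 2). For DDX60 the calls held only without control DMSO replicate 2 or TUSC3 KO TM replicate 2, and for OAS2 only without control TM replicate 3 or TUSC3 KO TM replicate 2. JAK2 held without control DMSO replicate 2 or TUSC3 KO TM replicate 2 or 3, ZC3HAV1 without control DMSO replicate 2 or any TUSC3 KO TM array, and IFNL2 without control DMSO replicate 1, control TM replicate 3 or any TUSC3 KO TM array. The JAK2 call was also lost with quantile normalization again and in the fit without the variance trend. TNFAIP3 was lost without control DMSO replicate 1, TUSC3 KO DMSO replicate 2 or 3, control TM replicate 2 or TUSC3 KO TM replicate 1. Of the 6 genes named after their values were seen, HERC5 held without any 1 of the 12 arrays, and the call was lost for IFI6 in 2 (TUSC3 KO DMSO replicate 1 and control TM replicate 2), IFIT1 in 4, IFIT3 in 7, DDX41 in 9 and IFNAR2 in 10. IFIT1 was lost without TUSC3 KO DMSO replicate 3, control TM replicate 1 or 2 or TUSC3 KO TM replicate 1, and IFIT3 held without control DMSO replicate 2, TUSC3 KO DMSO replicate 1, control TM replicate 1 or TUSC3 KO TM replicate 2 or 3. DDX41 held without control DMSO replicate 3, TUSC3 KO DMSO replicate 1 or TUSC3 KO TM replicate 2, and IFNAR2 without control DMSO replicate 2 or TUSC3 KO TM replicate 2. Groups of 3 arrays were not examined for single outlying arrays.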

How the results depend on the processing

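The numbers of members called, RIGI left out between genotypes, were 2 and 3 between genotypes under DMSO and TM, 2 and 2 for TM in control and TUSC3 KO cells, and 0 for the interaction. With quantile normalization again TM in control cells gave 1, and IRF1 was also called between genotypes under TM (limma adjusted p = 0.038). With the compared groups alone, DMSO gave 1, TM in control 1 and TM in TUSC3 KO cells 1. The methods' t-test after Benjamini-Hochberg gave 0 and 1 between genotypes and 0 and 0 for TM, with 3, 4, 3 and 2 members at an unadjusted p under 0.05. It called 1424, 1559 and 3730 genes between genotypes under DMSO and TM and for TM in TUSC3 KO cells (2844, 3801 and 6144 with limma). The replicate block called 4 members for TM in TUSC3 KO cells, RIGI (adjusted p = 0.034) and CGAS added, and changed the number of members in no other comparison; the replicate numbers did not pair the arrays throughout (same-numbered arrays correlated from -0.098 to 0.386, with 9 of 18 over 0.1, among them all 6 pairs of number 3 but 2 of 6 of number 1 and 1 of 6 of number 2, and 7 of 12 arrays correlated best with their own number). With 1 array left out, the members called were 1 to 2 between genotypes under DMSO, 3 to 3 under TM, 0 to 2 for TM in control, 2 to 3 in TUSC3 KO cells and 0 to 0 for the interaction. All changes of sign were of differences not called. With quantile normalization again these were TLR3 for TM in control (-0.0027), IRF7 for TM in TUSC3 KO cells (0.0047) and the interactions of STING1 (0.0136) and IRF3 (0.0171). With 1 array left out they were CGAS for TM in control (-0.012 to 0.076), IRF7 for TM in TUSC3 KO cells (-0.0506 to 0.0282), STING1 between genotypes under TM (-0.0552 to 0.0011), for TM in control (-0.0309 to 0.0063) and in TUSC3 KO cells (-0.0473 to 0.009), and the interactions of STING1 (-0.0307 to 0.0259), DHX58 (-0.0816 to 0.0341), MAVS (-0.0412 to 0.0227) and IRF3 (-0.0271 to 0.0037). Among the other named genes, arrays left out ended 101 calls and kept 1543, and the other alternatives ended 39, most of them by the methods' t-test, and kept 878. The cause was not tested. Signals near or below 4.77, as for TLR3, IFI16 and most interferons, limit what can be measured.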
